A study of Mus musculus with 106 samples.

Results

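The transcripts of 10 nuclear genes that carry out the mitochondrial oxidation of fatty acids were followed through 11 mouse tissues kept at 10 °C, 22 °C or 34 °C: Cpt1a, Cpt1b, Slc25a20, Cpt2, Acadvl, Acadl, Acadm, Acads, Hadha and Hadhb. They were chosen by gene symbol, as enzymes and the carrier of this pathway, among 19168 genes that carry the same name in all 4 count tables of the study, and each of the 10 was found in each table. The study asked how lasting exposure to mild cold or warmth changes gene expression across organs of male wild-type mice, given as C57BL/6 or C57BL/6J in the labels, measured by RNA sequencing of whole tissues in 106 libraries. For 10 °C, the temperature was lowered in steps, and interscapular brown adipose tissue (iBAT), inguinal subcutaneous adipose tissue (ingSAT), perigonadal visceral adipose tissue (pgVAT), liver, ileum, spleen, brain and hypothalamus were compared in 3 libraries with 3 libraries of mice at room temperature (RT, 22 °C), at 11 weeks of age. Bone marrow was compared in 6 against 6 libraries and spinal cord in 5 against 5, at the same age. For 34 °C, held for 4 weeks, iBAT, liver, ileum and brain of 12-week-old mice were compared in 3 against 3 libraries, and 6 quadriceps libraries at 22 °C, of the same age, served both 3 libraries at 10 °C and 3 at 34 °C. A library is a pool of 2 mice, except in bone marrow and spinal cord, where it is 1 mouse; for iBAT of the 34 °C experiment the study's sources give both pools and single mice. The mice at 10 °C and those at 34 °C came from different breeders and most of their libraries were made with different kits. Each group was therefore tested only against 22 °C libraries of its own table. In quadriceps, column names tie 3 of the 6 libraries at 22 °C to each experiment. Each quadriceps test thus also used 22 °C libraries of the other experiment.

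Long-chain fatty acids cannot cross the inner mitochondrial membrane as coenzyme A (CoA) esters. Carnitine palmitoyltransferase 1 on the outer membrane moves the acyl group to carnitine, and it comes in a form known as the liver form (Cpt1a) and one known as the muscle form (Cpt1b). The carrier encoded by Slc25a20 exchanges acylcarnitine for carnitine across the inner membrane, and Cpt2 hands the acyl group back to CoA in the matrix. Each turn of β-oxidation then opens with an acyl-CoA dehydrogenase: Acadvl acts on very long, Acadl on long, Acadm on medium and Acads on short chains. Hadha and Hadhb encode the α and β subunits of the mitochondrial trifunctional protein, which carries out the remaining steps of the turn for long chains. In brown fat these reactions fuel heat production through the uncoupling protein Ucp1.

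The stretches upstream of 4 transcription starts are given here because they belong to the genes whose levels moved most in iBAT, and to Cpt1a, which moved against the other members in ingSAT. They are RefSeq sequences of build GRCm38.p6, written 5′ to 3′ on the strand of the gene, cut to the bases that lie before the RefSeq start and in no annotated exon. For Cpt1a, this start (3323301) lies inside the gene as GENCODE M21 annotates it (3322334 to 3385733), so the stretch lies in an intron of a transcript that starts further upstream. Capitals mark the nuclear receptor motif AGGTCA on either strand. The stretches are chr19:3323051-3323284 (plus strand) for Cpt1a, chr9:108661886-108662087 (plus strand) for Slc25a20, chr4:107923611-107923839 (minus strand) for Cpt2, and, for Hadha and Hadhb together, the 85 bases chr5:30155163-30155247 between them, written on the plus strand, which is that of Hadhb.
Cpt1a: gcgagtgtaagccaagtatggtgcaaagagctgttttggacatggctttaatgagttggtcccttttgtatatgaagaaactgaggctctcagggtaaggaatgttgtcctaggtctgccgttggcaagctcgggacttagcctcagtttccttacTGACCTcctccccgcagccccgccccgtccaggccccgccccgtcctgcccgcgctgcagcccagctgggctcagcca
Slc25a20: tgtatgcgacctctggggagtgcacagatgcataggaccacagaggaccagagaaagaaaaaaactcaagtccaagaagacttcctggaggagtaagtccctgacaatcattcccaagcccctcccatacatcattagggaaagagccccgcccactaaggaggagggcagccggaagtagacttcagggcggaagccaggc
Cpt2: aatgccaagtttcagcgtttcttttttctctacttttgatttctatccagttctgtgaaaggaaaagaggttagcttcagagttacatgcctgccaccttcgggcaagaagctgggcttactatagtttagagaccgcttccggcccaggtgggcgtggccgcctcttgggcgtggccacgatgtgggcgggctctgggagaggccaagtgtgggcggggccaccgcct
Hadha and Hadhb: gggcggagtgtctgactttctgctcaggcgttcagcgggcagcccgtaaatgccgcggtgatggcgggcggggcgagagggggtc

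Hadha (chromosome 5, 30118304 to 30155162, minus strand) and Hadhb (30155248 to 30184593, plus strand) are annotated head to head and share this upstream stretch. RefSeq windows from 250 bases before to 50 bases after the start were at hand for 9 members. None of the 9 held 2 copies of AGGTCA spaced by 1 base, an arrangement present in 0.0396% of 32851 such windows, and none held AGGTCA directly preceded by TCA, which 0.423% of the windows held. A single AGGTCA was present in 3 of the 9 windows, those of Cpt1a, Acadm and Acadvl, against 16.3% of all windows. The G and C content of the 9 windows ranged from 50.7% to 70.3%, with a median of 60.7%, beside a median of 52.7% over all windows.

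Sequencing depth ranged from 4262403 to 62880248 counts per library, with a median of 21585677. Each tissue carried its own marker transcripts. The markers of hepatocytes, for example, summed to between 59350 and 67600 CPM (counts of a gene scaled to a common library size) in liver at 22 °C in the experiment at 10 °C, and those of skeletal muscle to between 190600 and 339900 CPM in quadriceps at 22 °C. Some libraries also held transcripts of other tissues. In brain at 22 °C, the library of replicate 2 held 50350 CPM of Alb, the transcript of serum albumin, against 1.47 and 2.68 CPM in the other two. The markers of the epididymis summed to 13080, 1.69 and 9804 CPM in the pgVAT libraries at 10 °C. At 22 °C these markers summed to 2513, 643 and 366 CPM in pgVAT. Ucp1 stood at 307 CPM in one pgVAT library at 22 °C. Ucp1 was also present in all 3 quadriceps libraries at 10 °C, at 27.7, 96.3 and 121 CPM, against at most 6.95 CPM in the 6 libraries at 22 °C. No 2 libraries had identical counts.

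Members were called changed where the p-value of edgeR's quasi-likelihood test, adjusted over all genes tested in that comparison, was under 0.05. Only genes with an average above 1 CPM were tested: Cpt1b passed this filter in 6 of the 16 comparisons, and each of the other 9 members in all 16. Members were called in 2 comparisons. In ingSAT at 10 °C, 7 members rose and 1 fell, and in iBAT at 34 °C, 6 members fell. In the other 14 comparisons, none of 130 tests of a member passed, although 10 had an unadjusted p under 0.05, and DESeq2 called 2 (Cpt2 in iBAT and Cpt1a in ileum, both at 10 °C). Over all genes, DESeq2 called 1992 in that iBAT comparison and 566 in that ileum comparison. The map of fold changes over all comparisons shows the 2 columns that hold the calls.

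**Figure D1:**
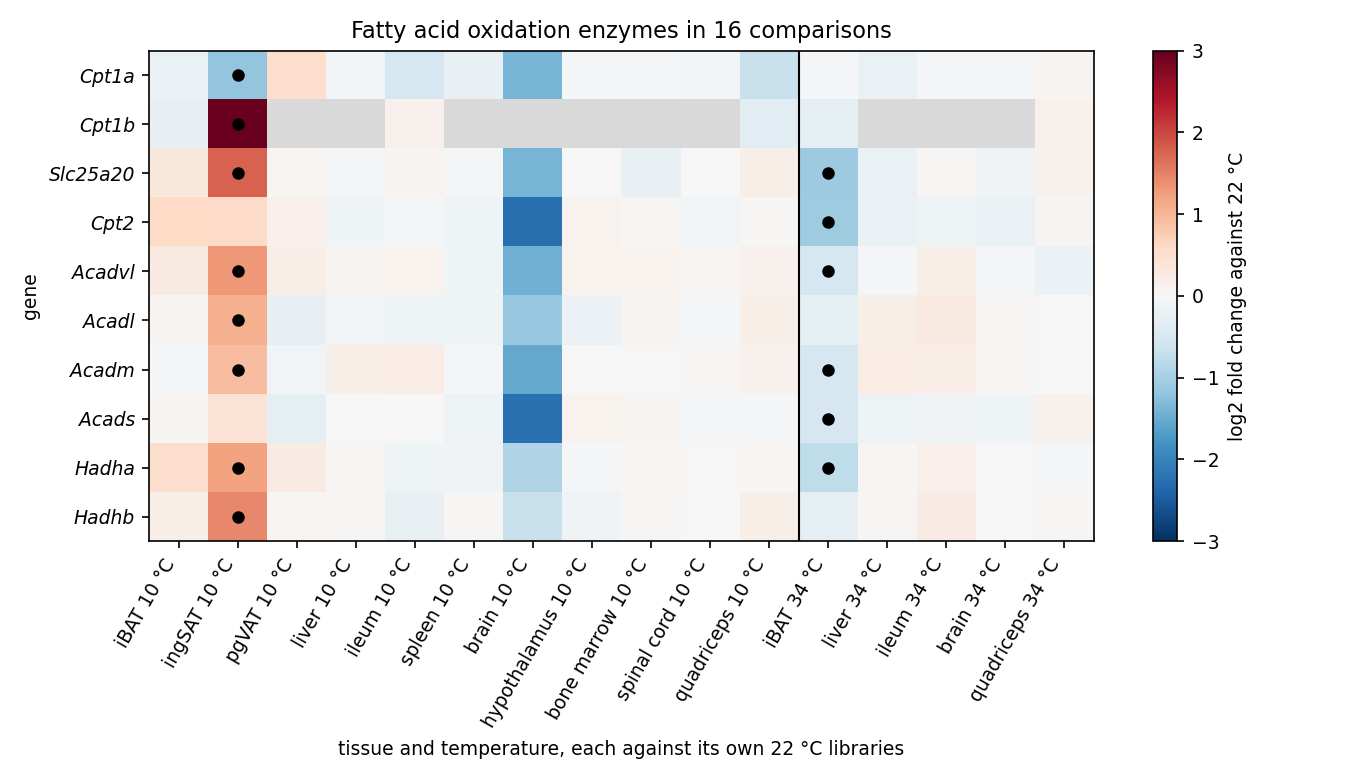
Log2 fold change of each member (rows) at 10 °C or 34 °C against 22 °C in 16 comparisons (columns; the line divides 10 °C from 34 °C). Red is higher and blue lower than at 22 °C, black dots mark adjusted p under 0.05 in edgeR's quasi-likelihood test, and grey cells were too low to test. Calls stand in ingSAT at 10 °C, where 8 of 10 members carry a dot, and in iBAT at 34 °C, where 6 do; the blue column of brain at 10 °C carries none.

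The largest changes were found in ingSAT, a white fat depot in which brown-like fat cells can appear in the cold. At 10 °C, 7 of the 10 members rose and 1, Cpt1a, fell, while 7.51% of 13982 genes tested were called in this tissue. The median log2 fold change of the members was 1.14, against -0.01 over all genes tested. The 10 °C libraries lay on one side of all 22 °C libraries for each of the 10 members, including Cpt2 and Acads, which did not pass the test. How many of all genes tested separated in this way was not counted. Of these genes, 3910 had an unadjusted p under 0.05 by edgeR.

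Among the genes of the carnitine shuttle, Cpt1b showed the largest rise. Its level was 1.24, 1.28 and 1.32 CPM at 22 °C and 8.94, 11.3 and 10.1 CPM at 10 °C, a level 7.84 times as high (log2 fold change 2.97 ± 0.22 SE, adjusted p = 0.00227 by edgeR). The 3 libraries of each temperature lay close together and far from those of the other. Cpt1a, the other form of the same enzyme, moved the opposite way, from 104, 101 and 63.5 CPM at 22 °C to 41.4, 37.3 and 38.5 CPM at 10 °C (log2 fold change -1.20 ± 0.20 SE, adjusted p = 0.0195 by edgeR). The lowest 22 °C library still lay above each of the 10 °C libraries. The log2 ratio of Cpt1b to Cpt1a counts within a library thus moved from -6.05 ± 0.43 (SD, n = 3) to -1.95 ± 0.24 (SD, n = 3), a difference of 4.10. An exact permutation test of 3 against 3 libraries cannot give a two-sided p under 0.1, and p was 0.1 here, 0.8 after adjustment over the 16 comparisons. Cpt1b counts remained below those of Cpt1a in each library at 10 °C.

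Slc25a20, the acylcarnitine carrier, rose from 94.9, 94.7 and 84.0 CPM to 314, 311 and 312 CPM (3.43-fold, log2 fold change 1.78 ± 0.11 SE, adjusted p = 0.00209 by edgeR). The groups were separated by far more than the spread within them. Cpt2, the last enzyme of the shuttle, was measured at 162, 190 and 87.6 CPM at 22 °C and at 237, 201 and 218 CPM at 10 °C, and the difference did not pass the test (log2 fold change 0.58 ± 0.27 SE, adjusted p = 0.217). Replicate 3 at 22 °C was the low library, as it was for Cpt1a.

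Of the 4 acyl-CoA dehydrogenases, 3 rose and Acads, the one for short chains, was not called. Acadvl went from 170, 177 and 119 CPM to 407, 368 and 377 CPM (log2 fold change 1.31 ± 0.18 SE, adjusted p = 0.0109 by edgeR). Acadl went from 244, 274 and 205 CPM to 530, 464 and 521 CPM (log2 fold change 1.07 ± 0.15 SE, adjusted p = 0.0123 by edgeR). Acadm, the highest of the 4 per kilobase of transcript at 22 °C in this tissue, went from 364, 393 and 375 CPM to 762, 645 and 741 CPM (log2 fold change 0.92 ± 0.13 SE, adjusted p = 0.0134 by edgeR). The groups of these 3 genes lay well apart. Acads stood at 166, 193 and 131 CPM at 22 °C and at 236, 197 and 225 CPM at 10 °C (log2 fold change 0.42 ± 0.17 SE, adjusted p = 0.156 by edgeR), so that its lowest 10 °C library was barely above its highest 22 °C library. Whether the effect on Acads differed from that on the other dehydrogenases was not tested.

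Both subunits of the trifunctional protein rose. Hadha went from 398, 420 and 248 CPM to 886, 787 and 779 CPM (log2 fold change 1.20 ± 0.22 SE, adjusted p = 0.0266 by edgeR). Hadhb went from 68.5, 71.4 and 66.4 CPM to 203, 176 and 187 CPM (log2 fold change 1.45 ± 0.11 SE, adjusted p = 0.00228 by edgeR). Replicate 3 at 22 °C was the lowest library for both, as it was for Cpt1a, Cpt2, Acadvl, Acadl, Acads and Slc25a20.

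**Figure D2:**
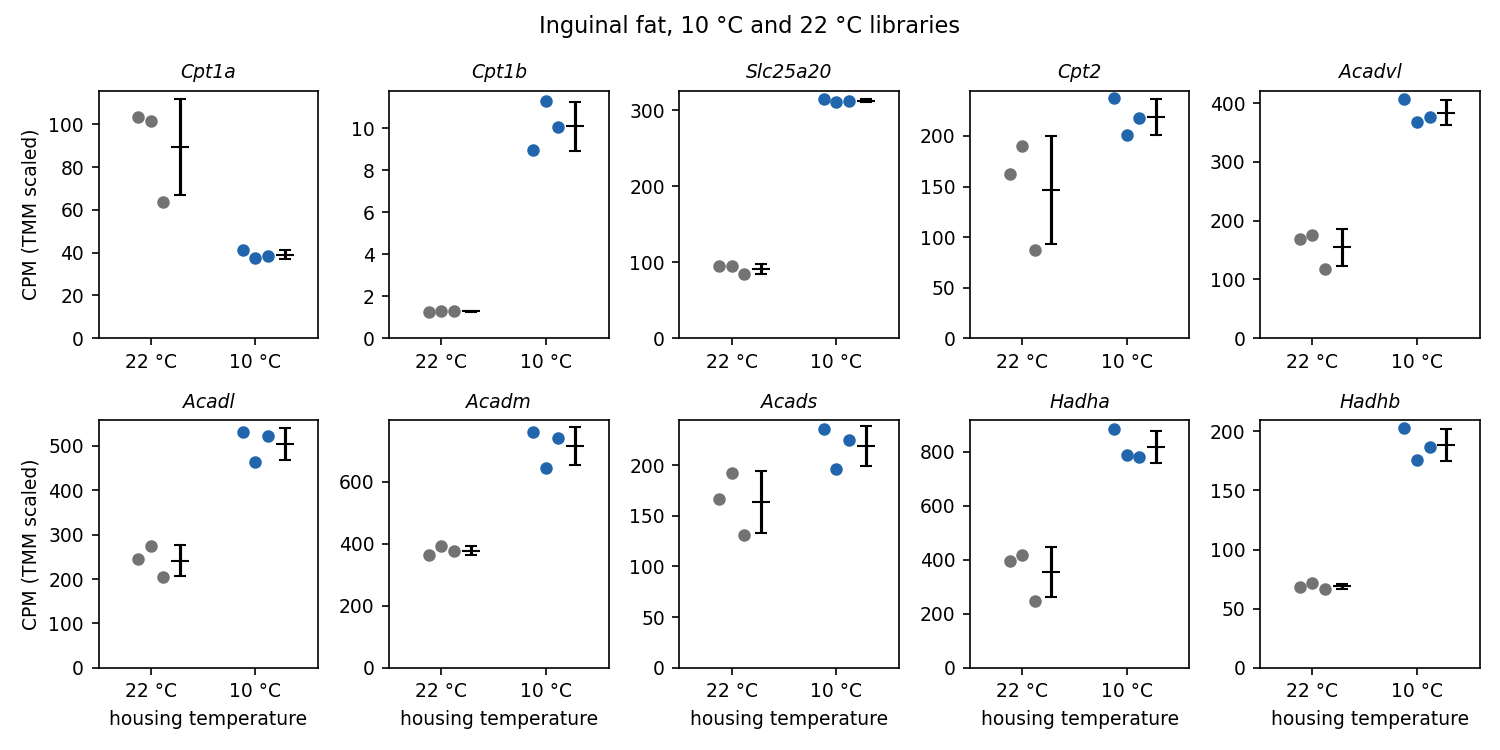
Level of each member in ingSAT in CPM (vertical axes, from 0), with 1 point for each library at 22 °C (grey) and 10 °C (blue) and the mean with SD (n = 3) beside them. Slc25a20 stands at 84.0 to 94.9 CPM at 22 °C and at 311 to 314 CPM at 10 °C, Cpt1a is the member that is lower at 10 °C, and the groups of no member overlap.

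The calls in ingSAT rested on few libraries. Leaving out 1 library at a time left between 3 and 8 members called, and Cpt1b, Slc25a20 and Hadhb kept the call each time; without replicate 3 at 10 °C these 3 were the members called, without replicate 1 at 22 °C 4 members, without replicate 2 at 22 °C 5. Cpt1a and Hadha each lost the call in 5 of the 6 fits. The direction of the 8 called members was the same in each of these fits. Other transcripts moved in the same libraries. The 5 markers of brown adipocytes all rose, their sum going from between 139 and 195 CPM to between 2332 and 2998 CPM, with Ucp1 at 2.504, 6.80 and 15.6 CPM at 22 °C and at 1120, 1276 and 1591 CPM at 10 °C. The 6 general adipocyte markers gave no call, with sums between 30710 and 36870 CPM at 22 °C and between 28860 and 35290 CPM at 10 °C. The 8 markers of skeletal muscle summed to between 1203 and 3049 CPM at 22 °C and to between 29.8 and 1790 CPM at 10 °C with none called. In whole tissue, a change in the share of a cell type and a change in RNA per cell cannot be told apart.

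The wider pathway was read from lists of genes. Of 18 further genes of fatty acid oxidation and its control, 6 rose in ingSAT and none fell, with a median log2 fold change of 0.48. Acaa2, a thiolase of the pathway, had the largest rise (log2 fold change 1.43, adjusted p = 0.00596 by edgeR). It was followed by Etfdh, which passes the electrons of the dehydrogenases on to the respiratory chain (1.37, adjusted p = 0.00683), Decr1, a reductase for unsaturated chains (1.24, adjusted p = 0.00687) and Eci1, an isomerase for such chains (0.82, adjusted p = 0.0147). Of 10 tricarboxylic acid cycle genes, which act in the same compartment, 7 rose, among them Idh3a (1.41), Suclg1 (1.19) and Sdhb (1.02). Among 9 regulators tested, 5 rose: the nuclear receptors Esrrg (2.10), Esrra (0.78, named after its value was seen) and Ppara (0.84) and the coactivators Ppargc1b (1.08) and Ppargc1a (0.97), the last from 12.96 to 25.46 CPM on average. Among the PPAR target genes, Pdk4, a kinase that curbs pyruvate oxidation, rose (1.76), as did Ucp3 (0.95), while Angptl4 fell (-1.10).

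In iBAT at 10 °C no member was called, while 11.3% of 12791 genes tested were. Of the 10 members, 7 had a positive log2 fold change (5 without the scaling factors that edgeR computes between libraries), the median was 0.15, and the temperature groups overlapped for each of the 10. The largest value was that of Cpt2, at 337, 381 and 550 CPM at 22 °C and 512, 775 and 638 CPM at 10 °C (log2 fold change 0.60 ± 0.22 SE, adjusted p = 0.108 by edgeR). Hadha followed, at 1885, 2235 and 2876 CPM at 22 °C and 2596, 4215 and 3298 CPM at 10 °C (0.53 ± 0.23 SE, adjusted p = 0.178). For both genes, 2 of the 3 libraries at 22 °C lay below all 3 at 10 °C and replicate 3 lay within their range. Without that library, Cpt2 (0.84) and Slc25a20 (0.52) were called. Over all genes, the fits that each left out 1 library called between 536 and 1761. Cpt2 and Hadha had an unadjusted p under 0.05 by edgeR, as had 3567 of all genes tested. DESeq2 called Cpt2, among 1992 genes that it called in this comparison. Ucp1 stood at 4089, 5406 and 8267 CPM at 22 °C and at 9127, 10430 and 12780 CPM at 10 °C (log2 fold change 0.86, adjusted p = 0.085). Of the 5 brown adipocyte markers, Elovl3 (3.51, adjusted p = 0.000146 by edgeR) and Cox7a1 (0.60, adjusted p = 0.0183) rose, and their sum went from between 8040 and 12860 CPM to between 14250 and 17960 CPM. Skeletal muscle markers summed to between 6810 and 9321 CPM at 22 °C and to between 2602 and 5416 CPM at 10 °C, a difference whose part in the members' values was not tested.

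**Figure D3:**
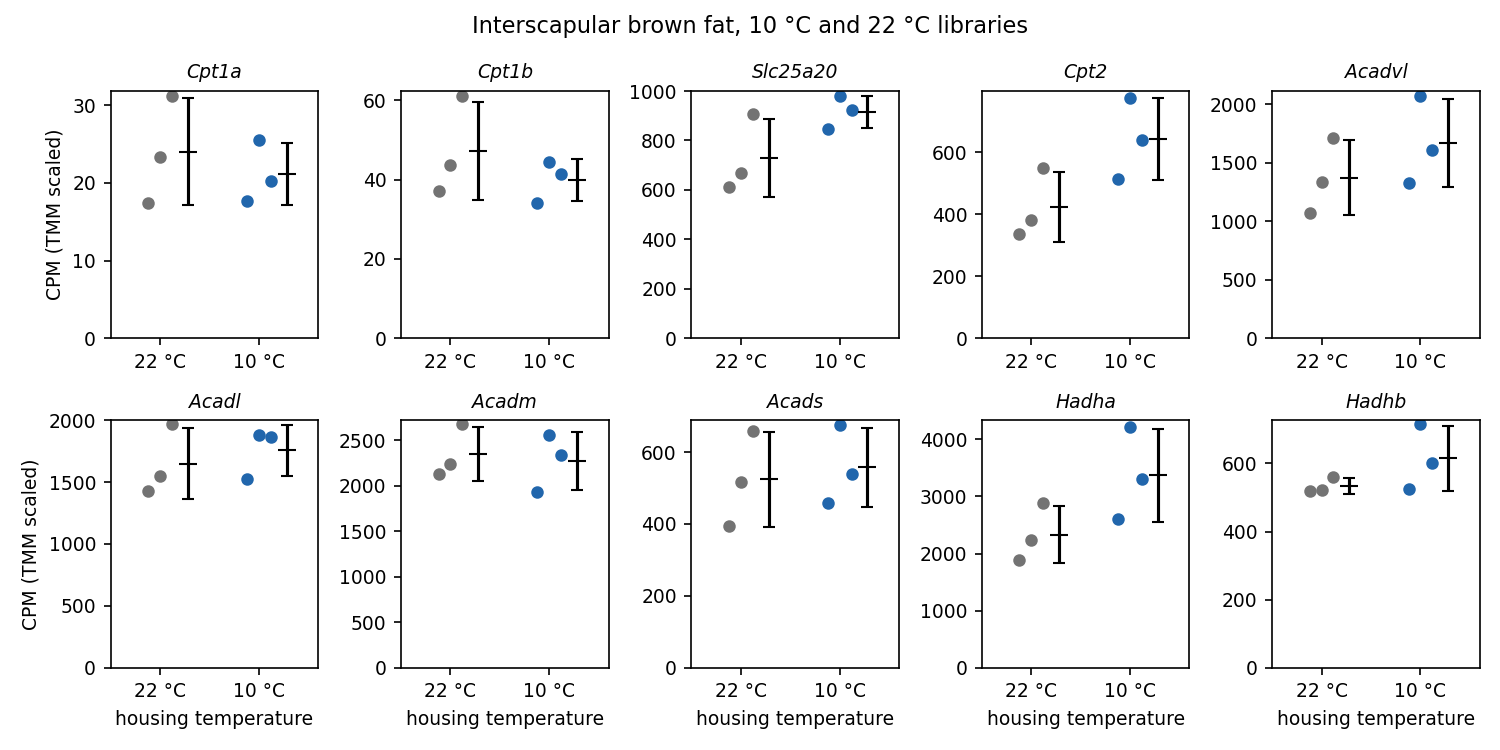
Level of each member in iBAT of the experiment at 10 °C in CPM (vertical axes, from 0), with 1 point for each library at 22 °C (grey) and 10 °C (blue) and the mean with SD (n = 3) beside them. The points of the 2 temperatures overlap for every member; Cpt2 and Hadha have the largest positive differences, at 0.60 and 0.53 on the log2 scale.

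Of the other lists in iBAT at 10 °C, 1 of 18 further oxidation genes rose, Acacb, a carboxylase that makes the inhibitor of carnitine palmitoyltransferase 1 (log2 fold change 0.97, adjusted p = 0.0177 by edgeR). None of the 10 tricarboxylic acid cycle genes passed at an adjusted p, with values between -0.16 and 0.32. Ppara fell by 1.25 and Ppargc1b by 0.63 on the log2 scale, and Lpin1 rose by 0.80. Ppargc1a was not called (-0.91, adjusted p = 0.0646), nor was Pdk4 (-0.12, adjusted p = 0.827). Of the PPAR target genes, Plin2, a lipid droplet protein, rose (1.29), and Angptl4 fell (-0.92).

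The effect of 10 °C differed between the 2 fat depots for 5 members. In a joint model of iBAT and ingSAT, in which 3.55% of 13631 genes had a different effect, the log2 fold change in iBAT was lower than that in ingSAT by 3.23 for Cpt1b (adjusted p = 0.000485 by edgeR) and by 1.47 for Slc25a20 (adjusted p = 0.00548). The difference was 1.27 for Hadhb (adjusted p = 0.00548), 0.99 for Acadl (adjusted p = 0.0462) and 0.99 for Acadm (adjusted p = 0.0349), all in the same direction. Cpt1b, Slc25a20 and Hadhb kept this call whichever library was left out. Acadl lost it in 10 refits and Acadm in 9. For both genes these were most of the 12 fits without 1 library and the fit with the replicate number as a block. For Cpt2 the joint model gave a difference of 0.01 ± 0.39 SE. Against pgVAT, no member differed in its effect from iBAT at an adjusted p or at an unadjusted p under 0.05, by edgeR or DESeq2, and 0.0835% of 14372 genes did.

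In iBAT at 34 °C, 6 of the 10 members fell and none rose, in a comparison in which 28.9% of 12331 genes tested were called. The median log2 fold change of the members was -0.50, against 0.02 over all genes, and all 10 values were below 0 (9 without the scaling between libraries). For 8 members, all except Cpt1a and Cpt1b, each library at 34 °C lay below each library at 22 °C. How many of all genes tested separated in this way was not counted. Of these genes, 5350 had an unadjusted p under 0.05 by edgeR. The 2 genes with the largest fall both belong to the inner membrane part of the carnitine shuttle.

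Slc25a20 was at 928, 745 and 809 CPM at 22 °C and at 357, 374 and 441 CPM at 34 °C (log2 fold change -1.08 ± 0.13 SE, adjusted p = 0.00225 by edgeR). Cpt2 was at 778, 698 and 713 CPM at 22 °C and at 324, 345 and 371 CPM at 34 °C (log2 fold change -1.07 ± 0.10 SE, adjusted p = 0.00111 by edgeR). Both were thus at 0.472 and 0.475 times their level at 22 °C. Neither form of carnitine palmitoyltransferase 1 was called. Cpt1a stood at 21.4, 27.8 and 23.7 CPM at 22 °C and at 24.3, 19.1 and 26.7 CPM at 34 °C (log2 fold change -0.06 ± 0.15 SE, adjusted p = 0.8003). Cpt1b was measured at 4.85, 3.77 and 3.28 CPM at 22 °C and at 3.63, 4.08 and 2.11 CPM at 34 °C (log2 fold change -0.27 ± 0.30 SE, adjusted p = 0.523), and its groups overlapped.

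Among the dehydrogenases, Acadvl fell from 4463, 4049 and 4330 CPM to 2763, 2964 and 3327 CPM (log2 fold change -0.50 ± 0.11 SE, adjusted p = 0.0162 by edgeR). Acads fell from 879, 786 and 768 CPM to 551, 537 and 629 CPM (-0.50 ± 0.11 SE, adjusted p = 0.0146), and Acadm from 3112, 2468 and 3206 CPM to 1983, 1999 and 2263 CPM (-0.49 ± 0.13 SE, adjusted p = 0.0301). Acadl, at 3700, 3256 and 3532 CPM at 22 °C and 2735, 2744 and 3153 CPM at 34 °C, was not called (-0.28 ± 0.11 SE, adjusted p = 0.0903). The log2 fold changes of the dehydrogenases lay closer to 0 than those of the carrier and Cpt2, a difference that was not tested.

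The subunits of the trifunctional protein differed in their call. Hadha fell from 2845, 3082 and 3077 CPM to 1630, 1764 and 1902 CPM (log2 fold change -0.77 ± 0.10 SE, adjusted p = 0.00336 by edgeR). Hadhb was at 3505, 3518 and 3757 CPM at 22 °C and at 2863, 2688 and 3253 CPM at 34 °C and was not called (-0.29 ± 0.11 SE, adjusted p = 0.0825). Whether the effects on the subunits differ was not tested.

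**Figure D4:**
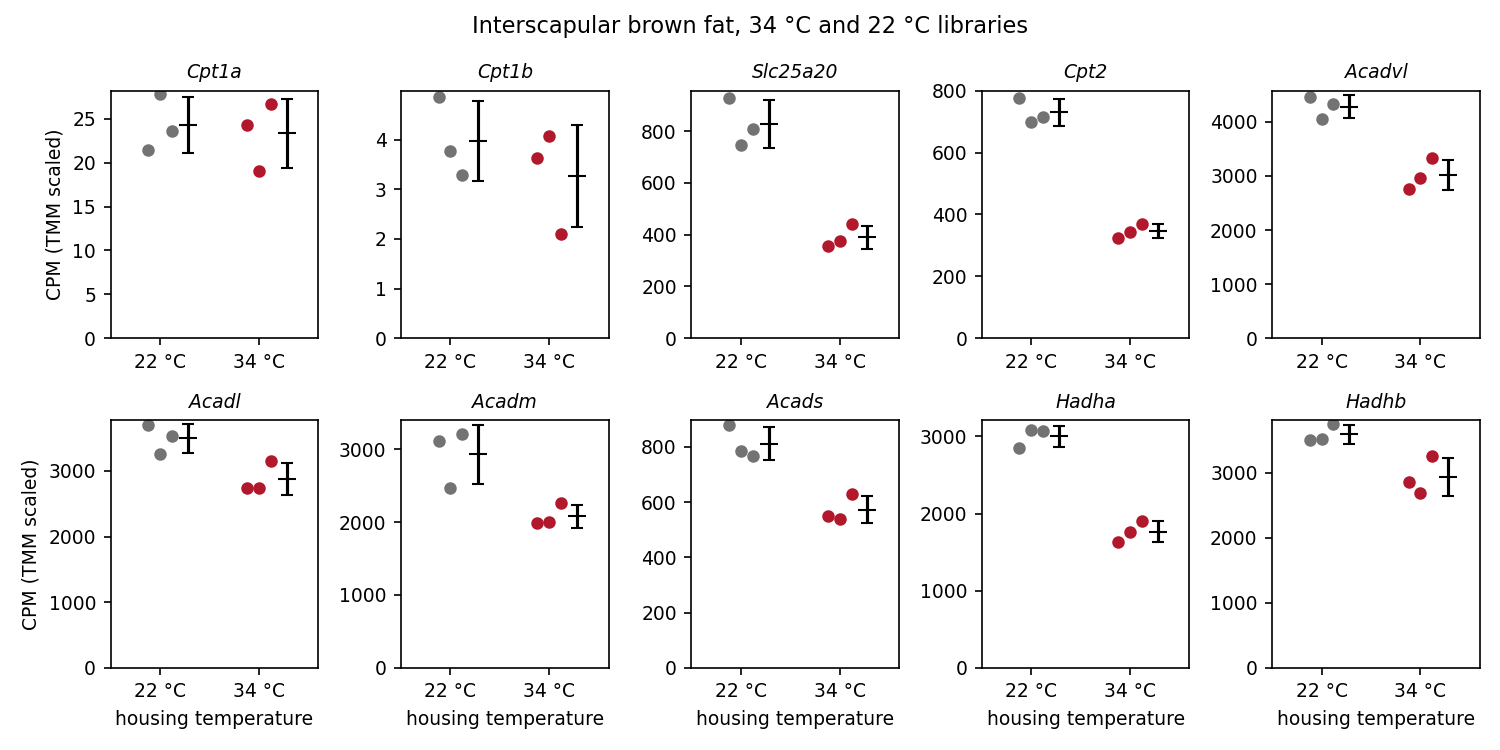
Level of each member in iBAT of the experiment at 34 °C in CPM (vertical axes, from 0), with 1 point for each library at 22 °C (grey) and 34 °C (red) and the mean with SD (n = 3) beside them. Slc25a20 falls from 745 to 928 CPM at 22 °C to 357 to 441 CPM at 34 °C and Cpt2 from 698 to 778 CPM to 324 to 371 CPM, while the points of Cpt1a and Cpt1b overlap.

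Slc25a20, Cpt2, Acads and Hadha kept their call whichever library was left out, with 4 to 7 members called in all and 4 without replicate 1 or without replicate 3 at 22 °C. Without the scaling factors between libraries (TMM), the median of all genes in this comparison moved up by 0.27 on the log2 scale. In that fit 3 members were called, Slc25a20 (-0.81), Cpt2 (-0.80) and Hadha (-0.50). Over all genes, 4909 were called without these factors, against 3561 with them. Cpt1a then had a positive value (0.22, adjusted p = 0.301). Ucp1 fell from 5489, 6289 and 8241 CPM to 1230, 1265 and 1691 CPM (log2 fold change -2.26, adjusted p = 0.00107 by edgeR), and was 1 of 2 brown adipocyte markers that fell of 5, Elovl3 (-5.78) being the other. Of the 6 general adipocyte markers, Lep (3.63) and Cfd (1.07) rose and Plin1 fell (-0.49), and their sums overlapped, at 13780 to 16220 CPM and 13080 to 14890 CPM. Skeletal muscle markers summed to 4.19, 6016 and 9.46 CPM at 22 °C and to 4857, 1292 and 1387 CPM at 34 °C. Without replicate 2 at 22 °C, the library with the high muscle sum, 6 members were called.

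Of the 18 further oxidation genes, 8 fell at 34 °C in iBAT and none rose. The 8 include Acacb, which makes the inhibitor of carnitine palmitoyltransferase 1, so the count mixes genes of opposite action. The largest falls were those of Acsl1, which activates long-chain fatty acids (log2 fold change -1.33, adjusted p = 0.00103 by edgeR), Mlycd, which breaks down malonyl-CoA (-1.03), Etfdh (-0.91) and Acacb (-0.90). Of the 10 tricarboxylic acid cycle genes, 5 fell, among them Sdha (-0.49), Idh3a (-0.48), Dlst (-0.46) and Ogdh (-0.42), and Mdh2 (-0.37), which was named after its value was seen. Of the regulators, Ppargc1a fell from 79.3 to 29.1 CPM (-1.45, adjusted p = 0.00821 by edgeR) and Rxra fell (-0.32), whereas Ppara rose (0.36, adjusted p = 0.041). Among the PPAR target genes, Ucp3 (-2.20), Plin2 (-1.39), Acot2 (-1.12) and Pdk4 (-0.66) fell and Angptl4 rose (1.16).

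The effect of 34 °C on iBAT differed from that on liver for 4 members and from that on quadriceps for 3. In the joint model with liver, in which 9.1% of 12599 genes differed, iBAT had the lower log2 fold change for Slc25a20 (by 0.87, adjusted p = 0.00901 by edgeR), Cpt2 (by 0.86, adjusted p = 0.00411), Hadha (by 0.79, adjusted p = 0.00491) and Acadm (by 0.70, adjusted p = 0.0256). In the joint model with quadriceps, in which 10.9% of 12320 genes differed, the values were 1.23 for Slc25a20 (adjusted p = 0.00045), 1.17 for Cpt2 (adjusted p = 0.0003) and 0.65 for Acads (adjusted p = 0.0226), again lower in iBAT. Cpt2 and Slc25a20 were called in each fit without 1 library, 12 fits for liver and 9 for quadriceps. The 6 quadriceps libraries at 22 °C were not left out. Nor was the quadriceps model refitted with only those 22 °C libraries that belong to the 34 °C experiment.

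In the remaining tissues the members gave no call. In pgVAT none of 14856 genes passed (0%, with 1207 at an unadjusted p under 0.05 and 157 by DESeq2). Without replicate 2 at 10 °C, the library with the lowest sum of epididymis markers, 1317 genes passed, with no member among them. With all libraries, the members lay between -0.28 and 0.53 on the log2 scale. The highest of these was Cpt1a, at 99.9, 76.6 and 94.1 CPM at 22 °C and 80.7, 76.8 and 235 CPM at 10 °C. At 10 °C a single library stood out, 1 of the 2 with the highest sums of epididymis markers. In liver, where these enzymes also serve ketone body synthesis, none of 12026 genes passed at 10 °C (0%; 2233 at an unadjusted p under 0.05, 530 by DESeq2; 538, with no member among them, without replicate 3 at 22 °C) and 0.385% of 11179 did at 34 °C. Members in liver lay between -0.14 and 0.18 at 10 °C and between -0.21 and 0.22 at 34 °C.

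In ileum, 0.0639% of 14081 genes were called at 10 °C (2414 at an unadjusted p under 0.05, 566 by DESeq2). None of 13023 was called at 34 °C (0%, with 1011 at an unadjusted p under 0.05 and 24 by DESeq2). Cpt1a was at 266, 290 and 259 CPM at 22 °C and at 174, 240 and 158 CPM at 10 °C in ileum (log2 fold change -0.51 ± 0.15 SE, adjusted p = 0.178 by edgeR). Its groups did not overlap, and DESeq2 called it. Enterocyte markers summed to between 6650 and 7211 CPM at 22 °C and to between 10980 and 11290 CPM at 10 °C in these libraries, and their part in the value was not tested.

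In quadriceps, 0.338% of 11836 genes were called at 10 °C and none of 11725 at 34 °C (0%; 629 at an unadjusted p under 0.05, 33 by DESeq2). Cpt1a ranged from 12.0 to 18.2 CPM in the 6 libraries at 22 °C, with a median of 15.5 CPM, and was at 10.27, 12.53 and 6.269 CPM at 10 °C (log2 fold change -0.66 ± 0.20 SE, adjusted p = 0.227 by edgeR). The other members lay between -0.31 and 0.18 at 10 °C and all members between -0.18 and 0.14 at 34 °C. The column names of the table tie 3 of the 6 libraries at 22 °C to each experiment. Against its own 3, Cpt1a at 10 °C had a log2 fold change of -0.47 (adjusted p = 0.481), with 0.0253% of 11841 genes called, and at 34 °C none of 11752 genes was called against the other 3 (0%; 486 at an unadjusted p under 0.05). Ppargc1a (0.13 at 10 °C and -0.09 at 34 °C), Ppara (0.05 and 0.04) and Pdk4 (-1.14, adjusted p = 0.215, and 0.25) were not called in this muscle.

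In spleen (0.0779% of 14117 genes called), bone marrow (19% of 12525), spinal cord (0.00695% of 14382) and hypothalamus (0% of 14526; 897 at an unadjusted p under 0.05, 22 by DESeq2), the members tested lay between -0.22 and 0.11 on the log2 scale at 10 °C. In bone marrow, none of the 9 members tested was among the genes called, and this count was not tested against the share of 19%. The members there with an unadjusted p under 0.05 were Slc25a20 (-0.22, adjusted p = 0.143) and Acadvl (0.11, adjusted p = 0.0989).

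In brain at 10 °C, none of 14423 genes passed (0%; 560 at an unadjusted p under 0.05, 5 by DESeq2), although the members had log2 fold changes between -2.27 and -0.67. The values came with the library of replicate 2 at 22 °C that held Alb transcripts. Cpt2, for example, was at 11.01, 126.2 and 10.46 CPM at 22 °C and at 10.35, 10.08 and 10.2 CPM at 10 °C. Without that library, Cpt2 had a log2 fold change of -0.07 ± 0.12 SE, all 9 members tested lay between -0.23 and 0.01, and 0.122% of 13976 genes were called, no member among them (none at an unadjusted p under 0.05). In brain at 34 °C, no gene of 13978 passed (0%; 369 at an unadjusted p under 0.05, none by DESeq2), and the members lay between -0.19 and 0.04.

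Levels at 22 °C are a description, and were compared within the table of 8 tissues. Values between genes were divided by the length of the principal transcript, in CPM per kilobase. iBAT held the highest level of each member except Cpt1a. In iBAT, Acadm stood at 1209 ± 126 CPM per kilobase (SD, n = 3), Acadl at 907 and Slc25a20 at 430 ± 82.6, whereas Cpt1b was at 17.2 ± 4.08 and Cpt1a at 5.84 ± 1.52. The CPM of the 10 members together came to 10511 ± 1663 in iBAT (SD, n = 3), 2040 ± 134 in liver, 1680 ± 198 in ingSAT, 1272 ± 187 in pgVAT, 1176 ± 93.2 in ileum, 619 ± 37.1 in spleen and 309 ± 11.3 in hypothalamus. In that order, pgVAT and ileum did not differ beyond their spread. Brain lay at 361 and 363 CPM in the 2 libraries without Alb transcripts.

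Cpt1a had a tissue pattern of its own. It was highest in liver, at 403 ± 28.9 CPM (SD, n = 3), and lowest in iBAT, at 25.2 ± 6.54 CPM. Between them stood ileum (277 ± 16.9 CPM), spleen (173 ± 28.3), pgVAT (92.5 ± 17.1), ingSAT (88.65 ± 17.99), the 2 brain libraries (61.9 ± 2.39) and hypothalamus (43.4 ± 3.56), where pgVAT and ingSAT did not differ beyond their spread. Over the group means of the 8 tissues, which share a kit and a table, Cpt1a had a weak correlation, -0.31, with the mean of the other 9 standardised members (-0.22 without the brain library that held Alb transcripts). The other members had correlations between 0.83 (Cpt1b) and 0.99 (Slc25a20). The 5 genes outside the list whose tissue pattern was most like the mean of the members, of 17027 genes, were Apba3 (Pearson r = 0.98), Etfdh (0.97), Immp2l (0.97), Pex2 (0.96) and Tpte (0.96). They were the same 5 without the brain library that held Alb transcripts.

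**Figure D5:**
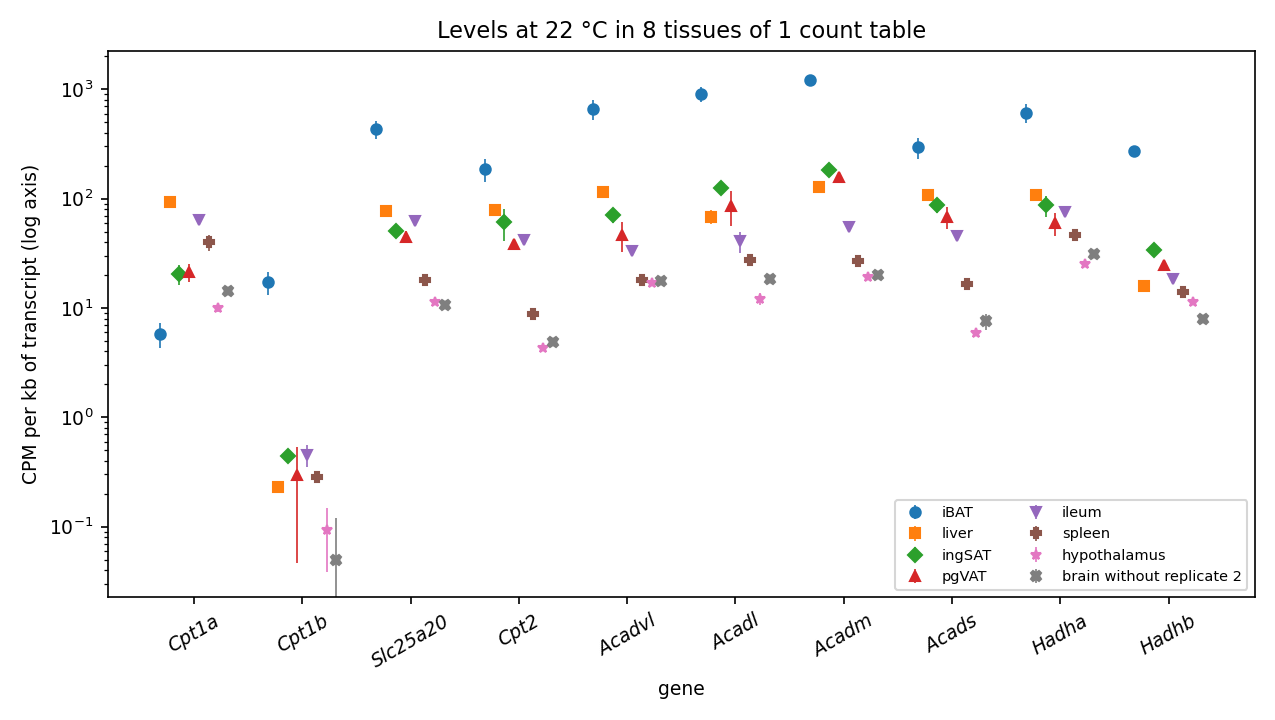
Level of each member (horizontal axis) at 22 °C in CPM per kilobase of principal transcript (vertical axis, log scale), with 1 symbol for the mean of each of 8 tissues and bars for the SD (n = 3, for brain n = 2 after leaving out replicate 2; bars that reach 0 are cut off by the axis). iBAT lies on top for each gene except Cpt1a, where it is the lowest at 5.84 and liver the highest at 93.4.

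Some members are measured with limits that the annotation shows. Cpt1b (chromosome 15, 89416405 to 89425863, minus strand) shares 81.4% of its exon bases with the overlapping gene Gm44502 on the same strand, so reads there could be assigned to either gene or to none. Its level at 22 °C in iBAT was 49.7 ± 11.8 CPM in the table of the experiment at 10 °C and 3.61 ± 0.76 CPM in that of the experiment at 34 °C (SD, n = 3 each), and in quadriceps it was 1.15 ± 0.17 CPM (SD, n = 6). Acadvl (chromosome 11, 70010183 to 70015411, minus strand) shares 42.9% of its exon bases with Dvl2 on the opposite strand, and whether counting used strand is not given in the sources used here. The study names a stranded kit for the 34 °C experiment and does not call the kit of the 8 tissues stranded. Acadvl in iBAT at 22 °C was at 1443 ± 297 CPM in the table of the experiment at 10 °C. In that of the experiment at 34 °C it was at 3898 ± 259 CPM (SD, n = 3 each). Hadhb in iBAT at 22 °C was at 564 ± 22.7 CPM in the first table and at 3271 ± 162 CPM in the second, while Hadha was at 2454 ± 464 and 2731 ± 104 CPM, so the ratio of the subunits cannot be compared between tables. Fold changes were taken within a table only.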

How the data were processed

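RNA was sequenced from 106 mouse tissue libraries. The authors aligned reads to mm10 and counted them per gene; the submitters' processing notes name STAR 2.5.3a, Picard 1.141 and HTSeq 0.6p1, while the study's methods give other versions of STAR and HTSeq. The authors deposited raw counts per gene in 4 tables, without normalization; the counting annotation is not given in the sources used here. In 1 table genes carry Ensembl identifiers, of which 21583 of 21647 were matched to symbols with GENCODE M21. No column was left unused. CPM are scaled by TMM, except levels across tissues at 22 °C, which are scaled by library total. Each comparison was fitted with edgeR 4.0.16 (quasi-likelihood F-test, TMM, average log2 CPM above 0) in R 4.3.3, with Benjamini-Hochberg adjustment over all genes tested and none across comparisons. The test was tried on simulated data. Alternatives were edgeR's exact test, DESeq2 1.42.0, library-size scaling, other filters, the limits of the study (unadjusted p up to 0.05 and fold change above 1.5), a replicate block and leaving out 1 library at a time. Bone marrow libraries and the quadriceps libraries at 22 °C were not left out of the edgeR fits. Genes outside the list are named where called, at most 4 per list, together with Ppargc1a, Ppara, Pdk4 and Ucp1 in fat and muscle; some genes of these lists are not reported here. Promoters are those of Cpt1a and of the 3 members that changed most in iBAT; Cpt1b was due as well and had no match in the sequence table. Members, lists and tests were chosen with earlier results of these data known. Libraries of a group are separate mice or pools.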

Additional observations from a re-analysis of the deposited data

Results flagged for a closer look

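In spinal cord at 10 °C, the library of replicate 4 stood apart from the other 4 for 3 of the members: Acadvl at 100.1 CPM (others 77.6 to 82.2), Acadm at 43.6 CPM (others 33.6 to 36.5) and Acads at 19.4 CPM (others 12.7 to 13.5). These are 3 of 50 gene and group combinations of 5 or 6 libraries examined, of which chance alone would mark about 1 in 20. In the same library the oligodendrocyte markers summed to 19610 CPM (others at 10 °C 25300 to 26230), the neuron markers to 2677 CPM (others 3304 to 3632) and the skeletal muscle markers to 97.02 CPM (others 3.11 to 54.3), and their part in these values was not tested. No member was called in spinal cord, with or without that library.

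Members whose temperature effect differed between tissues by the test of that difference in edgeR (adjusted p under 0.05) are given as the log2 effect in iBAT minus that in the other tissue. Against ingSAT at 10 °C the values were -3.23 for Cpt1b, -1.47 for Slc25a20, -0.99 for Acadl, -0.99 for Acadm and -1.27 for Hadhb. Against liver at 34 °C they were -0.87 for Slc25a20, -0.86 for Cpt2, -0.70 for Acadm and -0.79 for Hadha. Against quadriceps at 34 °C they were -1.23 for Slc25a20, -1.17 for Cpt2 and -0.65 for Acads.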

How the results depend on the processing

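For the 26 member effects and differences called, 145 refits with another test, scaling, filter, block or call rule kept the direction each time and lost the call 12 times, and 219 refits without 1 library kept the direction each time and lost the call 49 times. The replicate number as a block gave 1 member in iBAT at 10 °C instead of 0 (Cpt2) and 3 instead of 5 members whose effect differed between iBAT and ingSAT. Same-numbered libraries deviated together in some pairs and apart in others (correlations between -0.69 and 0.43). With 3 libraries a group, this check cannot settle whether the numbers pair the samples. The block cost Acadm its call in ingSAT and left 7 of 8. DESeq2 called 1 member each in iBAT and ileum at 10 °C, instead of 0, and 5 instead of 3 with a different effect in iBAT and quadriceps. The limits of the study gave 1 member in iBAT and 1 in quadriceps at 10 °C (Cpt1a) and 3 instead of 6 in iBAT at 34 °C, and library-size scaling gave 3 there. Over all genes in iBAT at 34 °C, the limits of the study passed 2392 and library-size scaling 4909, instead of 3561. The causes were not tested. Without 1 library, the members called numbered 0 to 2 in iBAT at 10 °C, 3 to 8 in ingSAT and 4 to 7 in iBAT at 34 °C, those with a different effect 3 to 6 (ingSAT), 3 to 5 (liver) and 2 to 4 (quadriceps), and 0 in the other comparisons refitted this way (bone marrow, with 6 libraries a group, was not). The quadriceps libraries at 22 °C were not left out in these fits. The difference in the log2 ratio of Cpt1b to Cpt1a ranged from 3.96 to 4.35 in ingSAT, from 0.40 to 0.94 in ileum and from 0.14 to 0.56 in quadriceps at 10 °C; it changed sign in iBAT at 10 °C (-0.11 to 0.0049), iBAT at 34 °C (-0.58 to 0.14) and quadriceps at 34 °C (-0.10 to 0.18, with -0.0014, -0.047, -0.071 and 0.106 between). Not run were the 22 °C quadriceps libraries split by number in the titles, since columns could not be tied to titles, and a block in bone marrow and spinal cord, whose columns name a group only; the quadriceps libraries split by column letters were added after the data were seen and gave no member called. With 3 libraries a group, a p above the threshold does not show that a member was unchanged. Calls over all genes moved by more than 1.5 times from 1050 in ingSAT (DESeq2 2270, edgeR's exact test 1855, limits of the study 2285, block 452, without 1 library 57 to 3799), 484 for iBAT against ingSAT (DESeq2 1163, block 161, without 1 library 140 to 2256), 12 for iBAT against pgVAT (DESeq2 311, block 0, without 1 library 1 to 1496) and 1147 for iBAT against liver (DESeq2 1819, library-size scaling 2644, without 1 library 691 to 1268). Without 1 library they ran from 746 to 1678 for iBAT against quadriceps (1349 with all), from 536 to 1761 in iBAT at 10 °C (1445 with all) and from 1870 to 3455 at 34 °C (3561 with all), and reached 1317 in pgVAT and 538 in liver at 10 °C (0 with all). In bone marrow the limits of the study passed 162 genes instead of 2377. In the other temperature comparisons, with at most 43 genes called, the limits of the study gave 27 to 1179, the exact test up to 455 and DESeq2 up to 566. Library-size scaling moved the median of all genes by -0.16 in iBAT, 0.12 in brain and 0.15 in quadriceps at 10 °C and by 0.27 in iBAT at 34 °C.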
